A study of Mus musculus with 2 samples.

Results

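The peroxiredoxin and thioredoxin system was examined as 10 genes, Prdx1 to Prdx6, Txn1, Txn2, Txnrd1 and Srxn1, taken by symbol from the count table. All 10 were found among its 56791 genes, and all 10 were measured, that is, had a mean of at least 1 CPM (counts per 1000000 counts, scaled by TMM). The data were RNA-seq read counts from RAW264.7, a mouse macrophage line derived from a leukaemia, labelled wild type. IL-4, the cytokine that drives M2 polarization, was given to both cultures for 24 h, as 20 ng of the recombinant mouse protein, and the study asked what a preparation named FAPD10-exos does to that polarization. The treated culture also received 10000000 particles of FAPD10-exos over that time, and the other, labelled vehicle, did not. The sources used here do not give the content of the preparation, the volume behind the IL-4 amount or the nature of the vehicle, and no culture without IL-4 was analysed here. Each group held 1 library, and total counts were 37196241 for the treated and 36152743 for the vehicle one. Every difference below therefore compares 2 libraries, has no replicate check and carries no p-value.

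Peroxiredoxins are thiol peroxidases that reduce hydrogen peroxide, organic peroxides and peroxynitrite with a reactive cysteine. In the typical 2-cysteine enzymes the oxidised cysteine forms a disulfide with a partner subunit, thioredoxin reduces that disulfide, and the selenoenzyme thioredoxin reductase restores thioredoxin with electrons from NADPH. When peroxide is abundant the cysteine can be oxidised further to sulfinic acid, and sulfiredoxin, the product of Srxn1, reverses this step. Macrophages make superoxide, which gives rise to peroxide, with their NADPH oxidase. Prdx1, Txnrd1 and Srxn1 are known targets of the transcription factor NRF2, which binds antioxidant response elements (AREs) with a small MAF partner.

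Because several of these genes share a known regulator, the bases before their start sites are shown first. RefSeq promoter entries on GRCm38.p6 matched 9 of the 10 genes, all but Prdx6, and gave 11 windows of 250 bases, of which Txnrd1 had 3. Each sequence runs 5′ to 3′ on the gene's strand and ends at the base before the start. Capitals mark matches on either strand to the ARE core TGACNNNGC or to TGANTCAGC, a related form with an AP-1 site inside it that was added after the sequences had been seen.
Prdx1, chr4:116685349-116685598, plus strand: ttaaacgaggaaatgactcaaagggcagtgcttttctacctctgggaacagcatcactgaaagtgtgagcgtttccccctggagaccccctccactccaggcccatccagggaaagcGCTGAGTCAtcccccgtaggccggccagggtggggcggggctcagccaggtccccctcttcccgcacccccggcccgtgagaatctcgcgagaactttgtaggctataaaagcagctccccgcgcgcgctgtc
Txnrd1, window 2 of 3, chr10:82858956-82859205, plus strand: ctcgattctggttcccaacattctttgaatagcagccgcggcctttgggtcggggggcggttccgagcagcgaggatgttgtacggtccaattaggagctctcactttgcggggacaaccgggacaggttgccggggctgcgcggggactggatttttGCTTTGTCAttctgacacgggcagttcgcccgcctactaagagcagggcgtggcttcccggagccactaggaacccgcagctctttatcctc
Srxn1, chr2:152105274-152105523, plus strand: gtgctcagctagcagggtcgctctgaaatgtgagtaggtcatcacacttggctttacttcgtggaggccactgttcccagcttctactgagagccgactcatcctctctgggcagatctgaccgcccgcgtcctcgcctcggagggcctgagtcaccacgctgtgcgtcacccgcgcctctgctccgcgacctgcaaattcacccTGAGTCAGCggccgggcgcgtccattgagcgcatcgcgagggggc
Txn1, chr4:57956412-57956661, minus strand: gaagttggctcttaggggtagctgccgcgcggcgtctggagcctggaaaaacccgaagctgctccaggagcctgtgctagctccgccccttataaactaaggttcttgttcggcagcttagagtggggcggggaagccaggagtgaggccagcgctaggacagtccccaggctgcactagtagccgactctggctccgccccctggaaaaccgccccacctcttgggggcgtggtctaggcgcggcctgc

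The windows of Prdx1 and the middle Txnrd1 start each held 1 match to TGACNNNGC, which occurs in 10.2% of all 32851 promoter windows of this length. The match GCTGAGTCA of Prdx1 lay 133 to 125 bases before the start and also matched TGANTCAGC, which occurs in 1.02% of the windows. Srxn1 held TGAGTCAGC, which matches only the latter form, 45 to 37 bases before its start. The Txnrd1 match, GCTTTGTCA, lay 92 to 84 bases before the start. Txn1 is shown as the gene with the highest ratio of the 10. Its window held neither form and had 4 matches to the GC box GGGCGG, which was found in 8 of the 9 genes and in 32.7% of all windows. The AP-1 motif TGANTCA, searched like the others on both strands, was found in Prdx1 and Srxn1 and in 6.75% of the windows, and overlaps the longer ARE form. The STAT6 motif (TTC, any 4 bases, GAA) was found in 0 of the 9 genes and in 5.85% of the windows. A match is a run of letters and no sign of binding, and the lack of one says only that these letters are not in this window. The 3 genes with either ARE form had ratios on both sides of 1, as given below.

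Of the 10 genes, 9 had a higher CPM in the treated than in the vehicle library and 1 had a lower one. All peroxiredoxin genes, both thioredoxin genes and Srxn1 had ratios of treated over vehicle from 1.30 to 1.83. Txnrd1, which encodes the cytosolic thioredoxin reductase, had a ratio of 0.593. At least 1.5-fold higher, with a counting interval above 1, were 5 genes (Prdx1, Prdx2, Prdx6, Txn1 and Txn2), at least 1.5-fold lower was 1 gene (Txnrd1), and 4 lay between. By the same rule 16.2% of 12264 measured genes were higher and 18.8% were lower. Ranges in parentheses after ratios are 95% counting intervals, which cover counting error only. They were computed from counts divided by 2, since most low counts in this table are even numbers and both ends of a read pair seem to have been counted. In bulk RNA, fewer cells of a type and less RNA per cell cannot be told apart.

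**Figure D1:**
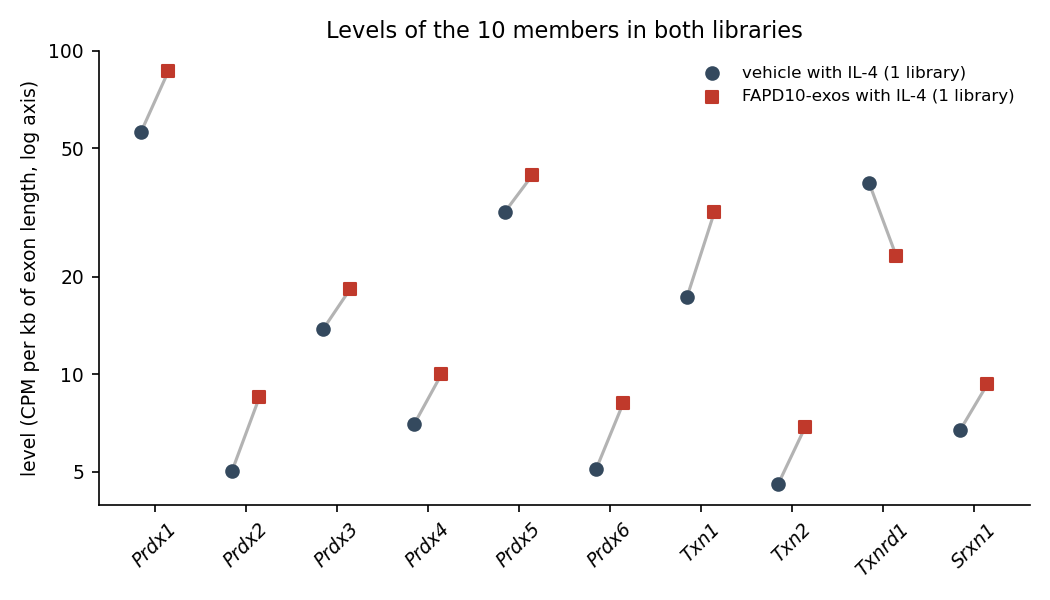
Level of each of the 10 genes, in CPM per kilobase of exon length on a log axis, in the vehicle (circles) and the treated library (squares), 1 library each, joined by a line per gene. Lines go up for 9 genes and down for Txnrd1, from 39.0 to 23.1 CPM per kilobase.

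Genes with short transcripts had higher ratios in this pair of libraries, and the genes of the system differ in length. Spearman's rho between log2 ratio and transcript length was -0.60 across 9913 protein-coding genes, which are not independent replicates, and -0.24 across the 10. Each ratio was therefore also set against the running median of protein-coding genes of like transcript length. The 9 genes other than Txnrd1 have principal transcripts of 990 to 2812 nt, taking the longest where several are annotated. Among 3969 measured protein-coding genes in that range, 21.7% were at least 1.5-fold higher and 4.64% lower. An interval above 1, whatever the size of the ratio, was found for all 9, for 48.8% of genes in that length range and for 32.5% of all measured genes, and one below 1 for 13.4% and 32.2%. Once the length trend was subtracted, no gene of the 10 passed 1.5-fold in either direction (0 higher, 0 lower), while 9.62% of the 9913 protein-coding genes did upward and 11.3% downward. At a 2-fold threshold without that step, none of the 10 passed (0 higher, 0 lower), and 4.17% of all measured genes passed upward and 8.64% downward. The median log2 ratio of the 10 was 0.55 before and 0.33 after that step, and that of all measured genes was 0.01 before it. With the trend subtracted, 6 of the 10 intervals lay above no difference and 2 below, and by that looser rule 29.3% of genes lay above and 28.8% below.

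**Figure D2:**
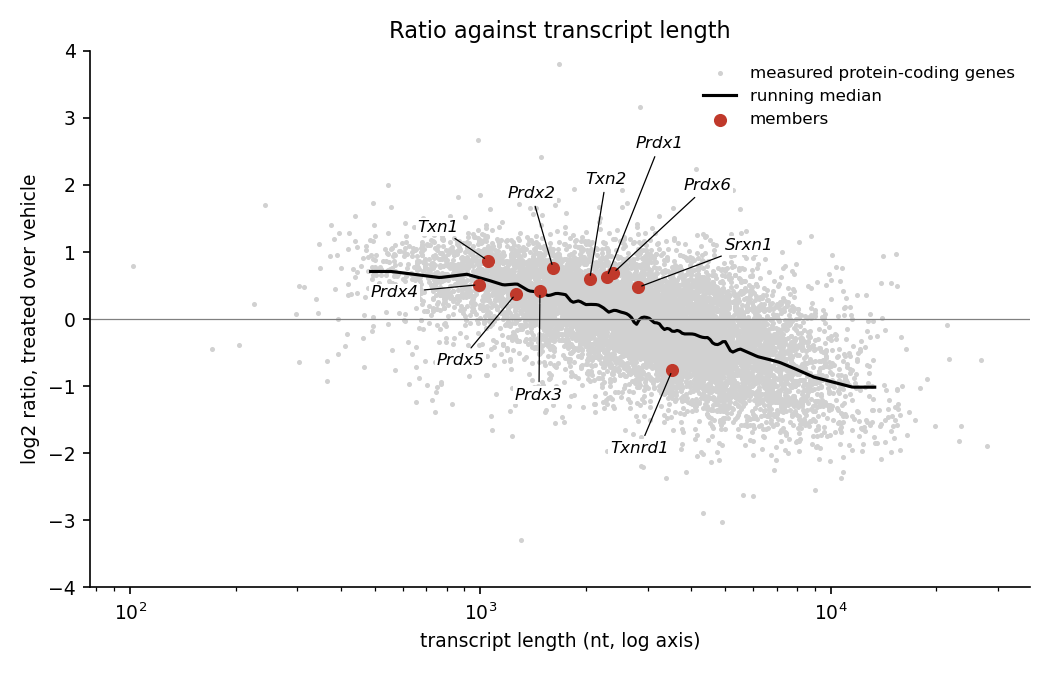
Log2 ratio of treated over vehicle against transcript length in nt (log axis) for measured protein-coding genes (grey), with their running median (line) and the 10 genes of the system (red). Prdx4, Prdx5 and Txnrd1 lie below the line, Prdx3 lies close to it, and the other 6 lie above it.

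Prdx1, the abundant cytosolic 2-cysteine peroxiredoxin, had 9349 against 6447 counts, treated against vehicle as in all such pairs below, or 263 against 171 CPM. Its ratio was 1.54 (1.47 to 1.61). The gene spans 116542741 to 116558019 of chromosome 4, plus strand, in the count table. The sources used here do not name the mouse build of these positions or of those that follow. After the length trend was subtracted its log2 ratio went from 0.62 to 0.50. For this gene 2 principal transcripts of very different length are annotated, 2294 and 877 nt, and with the shorter one the adjusted value was 0.01. Gene-level counts do not show which of the 2 was present, so the length-adjusted value of Prdx1 has no single answer here.

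Prdx2, a further cytosolic 2-cysteine enzyme, had 920 against 579 counts, or 25.9 against 15.3 CPM, a ratio of 1.69 (1.45 to 1.96). It spans 85696216 to 85701463 of chromosome 8, plus strand. Of its exon length 11.5% is shared with exons of Junb and Rnaseh2a, and the strand setting of the counting is not given, so a part of its reads could belong to those genes. Its length-adjusted log2 ratio was 0.39, about as far above the trend as that of Txn2, at 0.37.

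Prdx3, the mitochondrial 2-cysteine peroxiredoxin, had 966 against 769 counts, or 27.1 against 20.3 CPM, a ratio of 1.33 (1.16 to 1.53). It spans 60852489 to 60862994 of chromosome 19, minus strand. Prdx4, the 2-cysteine enzyme of the endoplasmic reticulum, had 748 against 557 counts, or 21.02 against 14.7 CPM, a ratio of 1.43 (1.22 to 1.67), and spans 154106914 to 154123750 of the X chromosome, minus strand. Both were between the thresholds, and both stood near the length trend, at log2 values of 0.02 for Prdx3 and -0.11 for Prdx4, with length-adjusted intervals that included no difference. The adjusted direction of these genes was not stable: with the exon length of the table in place of transcript length, Prdx3 was at -0.08 and Prdx4 at 0.09.

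Prdx5, an atypical 2-cysteine peroxiredoxin found in mitochondria, peroxisomes and cytosol, had 3139 against 2571 counts, or 88.2 against 68.0 CPM. Its ratio of 1.30 (1.20 to 1.40) was the lowest of the 6 peroxiredoxins. It spans 6884065 to 6887474 of chromosome 19, minus strand, and 19.1% of its exon length is shared with exons of Trmt112, which itself had 2996 against 1904 counts. After the length trend was subtracted Prdx5 stood at -0.15, a ratio of 0.902 (0.838 to 0.972), so its direction turned. It was nearer to no difference with the other lengths, at -0.03 with exon lengths and -0.03 over the shortest principal transcripts.

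Prdx6, the 1-cysteine peroxiredoxin, which uses glutathione in place of thioredoxin and also has phospholipase activity, had 1395 against 923 counts, or 39.2 against 24.4 CPM. Its ratio was 1.61 (1.43 to 1.81), and it spans 161067682 to 161078789 of chromosome 1, minus strand. Among the 10 it stood farthest above the length trend, at a log2 value of 0.56 (a ratio of 1.47, 1.31 to 1.66), and at 0.64 when the shortest principal transcripts were used, where it passed the 1.5-fold threshold. Its adjusted interval lay wholly above those of Prdx3, Prdx4 and Prdx5, whose adjusted log2 values were -0.15 to 0.02.

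**Figure D3:**
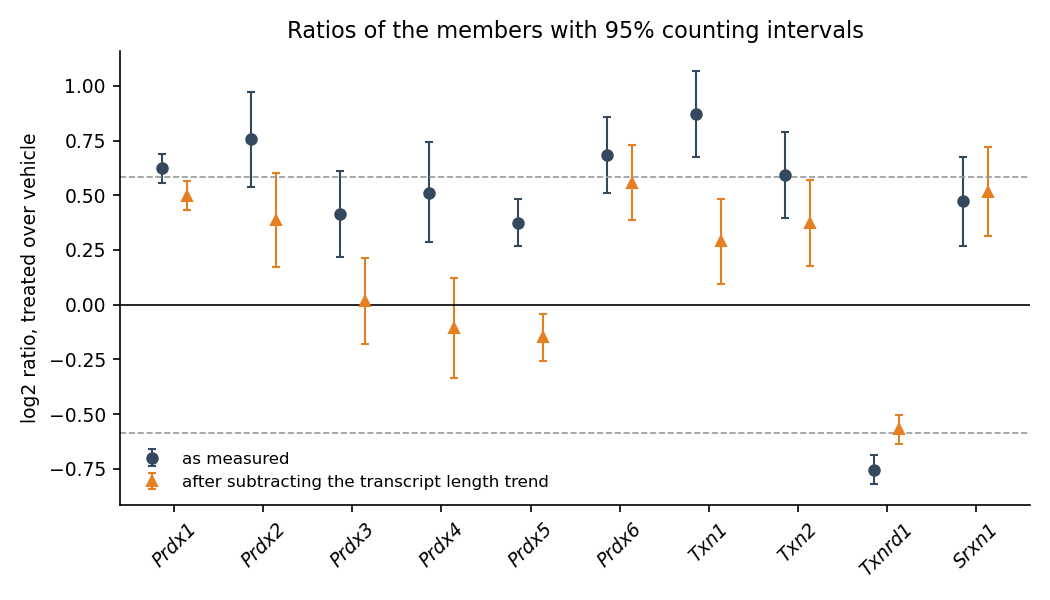
Log2 ratio of treated over vehicle for each of the 10 genes with 95% counting intervals, as measured (circles) and after subtraction of the transcript length trend (triangles). Dashed lines mark 1.5-fold. As measured 9 intervals lie above 0 and that of Txnrd1 below, whereas after the subtraction Prdx5 and Txnrd1 lie below 0 and the intervals of Prdx3 and Prdx4 span it.

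The thioredoxins, small dithiol proteins that pass electrons to peroxiredoxins and other enzymes, were both called higher. Txn1, the cytosolic form, had 1186 against 689 counts, or 33.3 against 18.2 CPM, and its ratio of 1.83 (1.60 to 2.09) was the highest of the 10. It spans 57943373 to 57956411 of chromosome 4, minus strand and has the shortest exon length of the 10, 1051 bases. The running median at that length was already 0.58 in log2, and Txn1 stood 0.29 above it. Txn2, the mitochondrial form that reduces Prdx3, had 1031 against 727 counts, or 29.0 against 19.2 CPM, a ratio of 1.51 (1.31 to 1.73), just past the threshold, and spans 77799247 to 77813206 of chromosome 15, minus strand. Within each library the counts of Prdx3 relative to Txn2 were 0.937 (treated) and 1.06 (vehicle), which gives a ratio of 0.886 (0.733 to 1.07) that included 1, or 0.781 with the length trend subtracted.

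Txnrd1 went the other way from the other 9 genes. It had 5833 against 10451 counts, or 164 against 277 CPM, and was 1.69-fold lower (1.61 to 1.77). It spans 82669785 to 82733546 of chromosome 10, plus strand, over 15 exon blocks. Its principal transcript of 3531 nt is the longest of the 10, and of the 992 protein-coding genes of nearest length (1 of 10 equal bins, 3482 to 4133 nt) 20.0% were at least 1.5-fold lower and 4.84% higher. After the length trend was subtracted Txnrd1 stood at -0.57 in log2, 1.48-fold lower (1.42 to 1.55), slightly short of the threshold. With the shortest principal transcript, of 2297 nt, it stood at -0.85 and passed it, and with the exon length trend it stood at -0.44 and did not.

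Comparing genes within a library removes the scaling between libraries. Counts of Txnrd1 relative to those of Txn1, its substrate, were 15.2 in the vehicle and 4.92 in the treated library, 3.08-fold lower (2.68 to 3.55). Counts of Prdx1 relative to Txnrd1 were 0.617 in the vehicle and 1.60 in the treated library, 2.60-fold higher (2.44 to 2.77). Prdx1 relative to Txn1 was 9.36 in the vehicle and 7.88 in the treated library, a ratio of 0.842 (0.732 to 0.969). These quotients compare genes of different length: with the transcript length trend subtracted, Txnrd1 relative to Txn1 was 1.81-fold lower, Prdx1 relative to Txnrd1 was 2.10-fold higher, and Prdx1 relative to Txn1 turned to a ratio of 1.16. No interval was computed for the adjusted quotients. Over the shortest principal transcripts Prdx1, at 0.01 in log2, lay below Txn1, at 0.38, and above Txnrd1, at -0.85. The turn of Prdx1 relative to Txn1 thus depends on the transcript used. The other reductases, named after their values were seen, had intervals that included 1. Txnrd2, the mitochondrial reductase, had 320 against 286 counts at a ratio of 1.19 (0.942 to 1.4996), and Txnrd3, best known from testis, had 152 against 172 counts at 0.939 (0.680 to 1.29).

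Srxn1, the repair enzyme of over-oxidised peroxiredoxins, had 935 against 716 counts, or 26.3 against 18.9 CPM, a ratio of 1.39 (1.21 to 1.60). It spans 151947436 to 151953296 of chromosome 2, plus strand. Its counts relative to those of Prdx1 were 0.100 (treated) and 0.111 (vehicle), which gives a ratio of 0.901 (0.779 to 1.04) that included 1, or 1.01 with the length trend subtracted. The adjusted value depends on the transcript used for Prdx1, since over the shortest principal transcripts Prdx1 stood at 0.01 in log2 and Srxn1 at 0.51. Among genes of like length the ratio of Srxn1 was above the median, at 0.52 in log2 after the trend was subtracted and at 0.22 with exon lengths. The 3 genes with an ARE form in the windows printed above thus had log2 ratios of 0.62 for Prdx1, 0.47 for Srxn1 and -0.75 for Txnrd1.

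Levels were compared between genes per kilobase, first of the exon length in the table. In the vehicle library Prdx1 was highest at 56.1, then Txnrd1 at 39.0, Prdx5 at 31.8, Txn1 at 17.3 and Prdx3 at 13.8. Prdx4 at 7.00 and Srxn1 at 6.72 had overlapping counting intervals, as had Prdx6 at 5.08, Prdx2 at 5.02 and Txn2 at 4.57. In the treated library the order at the top was Prdx1 at 86.3, Prdx5 at 41.2, Txn1 at 31.7, Txnrd1 at 23.1 and Prdx3 at 18.4, so Txnrd1 moved from rank 2 to rank 4. With principal transcript lengths Txnrd1 led in the vehicle library, at 78.3 against 74.4 for Prdx1, and Prdx1 led in the treated library, at 115 against 46.4 for Txnrd1, behind Prdx5 at 69.9. These levels use the longest principal transcripts, 2294 nt for Prdx1 and 3531 nt for Txnrd1. Shorter ones of 877 and 2297 nt are also annotated and would raise both levels, so the vehicle order has no single answer here.

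Of the summed peroxiredoxin level per kilobase of exon length, Prdx1 made up 47.2% in the vehicle and 50.03% in the treated library and Prdx5 26.8% and 23.9%. Prdx3 made up 11.6% and 10.6%, and Prdx2, Prdx4 and Prdx6 made up 4.23 to 5.89% and 4.73 to 5.78%. With principal transcript lengths Prdx1 made up 42.1% and 44.7%, and Prdx4, at 8.43% and 8.28%, stood above Prdx3, at 7.79% and 7.16%. These shares rest on the 2294 nt transcript of Prdx1, and the 877 nt one would raise its share. The 6 peroxiredoxins together had 464 against 313 CPM, a ratio of 1.48 (1.43 to 1.53). All 10 genes together had 717 against 646 CPM, a ratio of 1.11 (1.08 to 1.14); without Txnrd1 the other 9 had a ratio of 1.49 (1.45 to 1.54).

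Reads of near copies could be divided among loci. Of 5 pseudogene rows of the families in the table, Txn-ps1 had 2 against 0 counts and Prdx2-ps1 had 1 against 2. Prdx1-ps, Prdx2-ps2 and Prdx6-ps2 had 0 in both, as had the gene copy Prdx6b. Almost no counts were thus assigned to these copies, but the sources used here do not say whether reads with several matches were dropped, so values of Prdx1, Prdx2, Prdx6 and Txn1 are uncertain to that extent. Txndc2, known from testis, had 10 against 4 counts and Txndc8 had 0 in both.

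Lists of related redox genes were read by the same rule, beside 16.2% higher and 18.8% lower of all measured genes. With the length trend subtracted these shares were 9.62% and 11.3% of protein-coding genes. Of 17 measured thioredoxin-related genes outside the 10 (the other reductases, thioredoxin-fold proteins and the inhibitor Txnip), 4 were higher and 2 lower, and the median was 0.00 in log2. Txnl4b had a ratio of 1.87 (1.09 to 3.27), Txndc17 one of 1.67 (1.44 to 1.94) and Txndc15 one of 1.61 (1.38 to 1.88), while Tmx4, a membrane thioredoxin of the endoplasmic reticulum, was 2.01-fold lower (1.82 to 2.23). With the length trend subtracted none of these 4 genes was called. Txnl4b, at 0.64, was past 1.5-fold with an interval that included no difference, and the others lay between the thresholds. In the whole list 0 genes were then lower and 2 higher, Txnl1 at 0.88 and Txnl4a at 0.76, both named after their values were seen. Txnip, which binds and inhibits thioredoxin and is named after its values were seen, had 2151 against 2968 counts and a ratio of 0.770 (0.711 to 0.833), between the thresholds. Of 7 measured genes listed for thioredoxin clients and their subunits 3 were higher and 1 lower. Higher were Rrm1, the large ribonucleotide reductase subunit, at 1.58 (1.53 to 1.62), and the methionine sulfoxide reductases Msra at 1.79 (1.11 to 2.95) and Msrb2 at 1.61 (1.25 to 2.10). Rrm2b, a small subunit of ribonucleotide reductase, was 2.01-fold lower (1.49 to 2.72). The length trend took this list from a median of 0.66 to 0.18, with Rrm1 still higher, Rrm2b still lower, and Msra and Msrb2 not called. Msra, at 0.59, was just past 1.5-fold, with an interval that included no difference.

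Genes that supply the system were mostly between the thresholds, as were most measured genes, of which 16.2% were higher and 18.8% lower. Of 12 genes listed for NADPH supply 1 was higher and 0 lower, with a median of 0.24. That list also holds enzymes that do not make NADPH themselves, Taldo1 and Tkt among them. Taldo1, the transaldolase of the pentose phosphate pathway, had a ratio of 2.08 (1.94 to 2.22), Tkt one of 1.44 (1.36 to 1.53), Me2 one of 1.30 (1.21 to 1.40) and Me1 one of 0.799 (0.685 to 0.932). G6pdx and Pgd, the NADPH-making enzymes of that pathway, are named after their values were seen. Their ratios were 0.843 (0.798 to 0.889) and 0.955 (0.896 to 1.02), both between the thresholds. With the length trend subtracted the median was -0.03, Taldo1 at 0.54 lay between the thresholds and Tkt at 0.59 was higher. After that step 9.62% of protein-coding genes were higher and 11.3% lower. Of 8 genes tied to selenoprotein synthesis, the process that gives Txnrd1 its selenocysteine, 1 was higher and 1 lower, with a median of 0.12. That list includes Secisbp2l and Sephs1, relatives of Secisbp2 and Sephs2, and their need in the process is not assumed here. Trnau1ap, a tRNA-selenocysteine associated protein, had a ratio of 2.12 (1.75 to 2.59), Eefsec one of 1.36 (1.13 to 1.64) and Sephs2, with 36.4% of its exon length in other genes, one of 1.34 (1.24 to 1.44). Secisbp2l was 2.13-fold lower (1.87 to 2.44). With the length trend subtracted Trnau1ap at 0.56 and Secisbp2l at -0.48 lay between the thresholds, and 1 gene was higher, Sephs1 at 0.61, which is named after its values were seen.

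The glutathione system, which works beside thioredoxin, had 7 higher and 2 lower of 14 measured genes, beside 16.2% and 18.8% of all measured genes. Its median was 0.52, close to the 0.55 of the 10. Glrx5, a mitochondrial glutaredoxin, had a ratio of 2.25 (1.83 to 2.79), the lipid peroxidase Gpx4 one of 2.03 (1.84 to 2.24), Gpx1 one of 1.92 (1.85 to 1.9996), with 84.0% of its exon length in other genes, and Ggct one of 1.90 (1.64 to 2.20). The 2 lower genes, named after their values were seen, were Gclc, 1.52-fold (1.35 to 1.72), and Slc7a11, 1.55-fold (1.24 to 1.94). With the length trend subtracted Gclc stood at -0.47 and Slc7a11 at 0.25 in log2. Of 4 measured superoxide and catalase genes 3 were higher: Sod1 at 2.09 (2.01 to 2.18), its copper chaperone Ccs at 1.91 (1.54 to 2.37) and the mitochondrial Sod2 at 1.57 (1.43 to 1.72), while Cat, catalase, had a ratio of 0.714 (0.615 to 0.828). After the length trend was subtracted 2 of the 14 and 1 of the 4 were higher and 0 were lower in either list. By that rule 9.62% of protein-coding genes were higher and 11.3% lower. Still higher were Glrx5 at 1.14, Ggct at 1.14 and Sod2 at 1.15 in log2. Gpx4 at 0.38, Gpx1 at 0.38, Sod1 at 0.40 and Ccs at 0.36 then lay between the thresholds.

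Among genes of the NRF2 axis outside these lists, 2 of 14 measured were higher and 4 lower, beside 16.2% and 18.8% of all measured genes. The median of this list was -0.30. Nfe2l2, which encodes NRF2 itself and is named after its values were seen, had 3384 against 5429 counts and was 1.51-fold lower (1.42 to 1.61). The heme oxygenase gene Hmox1 was 1.87-fold lower (1.67 to 2.09), Bach1, a repressor at AREs, 2.01-fold (1.53 to 2.64) and Ephx1 1.68-fold (1.30 to 2.18), while the ferritin gene Fth1 had a ratio of 1.61 (1.58 to 1.65), with 18.7% of its exon length in other genes. After the length trend was subtracted 4 were lower and 0 higher, beside 11.3% and 9.62% of protein-coding genes. The 4 were Nfe2l2, Hmox1, Ephx1 and Gstm1, the last named after its values were seen, while Bach1 at -0.50 lay between. Gstm1 had only 54 against 72 counts, and its ratio before the subtraction, 0.797 (0.465 to 1.35), had an interval that included 1. Before the subtraction the other higher gene, named after its values were seen, was Blvrb at 1.55 (1.09 to 2.21). Txnrd1 thus had the direction of the lower genes Nfe2l2, Hmox1, Bach1 and Ephx1. Prdx1 and Srxn1 had that of the higher genes Fth1 and Blvrb, neither of which was called after the subtraction. Shared regulation was not tested. Of 9 measured peroxide sources 0 were higher and 2 lower, and 0 after the length trend: Cybb, the catalytic subunit of the phagocyte oxidase, was 1.81-fold lower (1.74 to 1.88) and Ero1a, an oxidase of the endoplasmic reticulum, 1.71-fold (1.58 to 1.85), while Ncf4 had a ratio of 1.43 (1.28 to 1.61) and Cyba one of 1.41 (1.33 to 1.48).

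**Figure D4:**
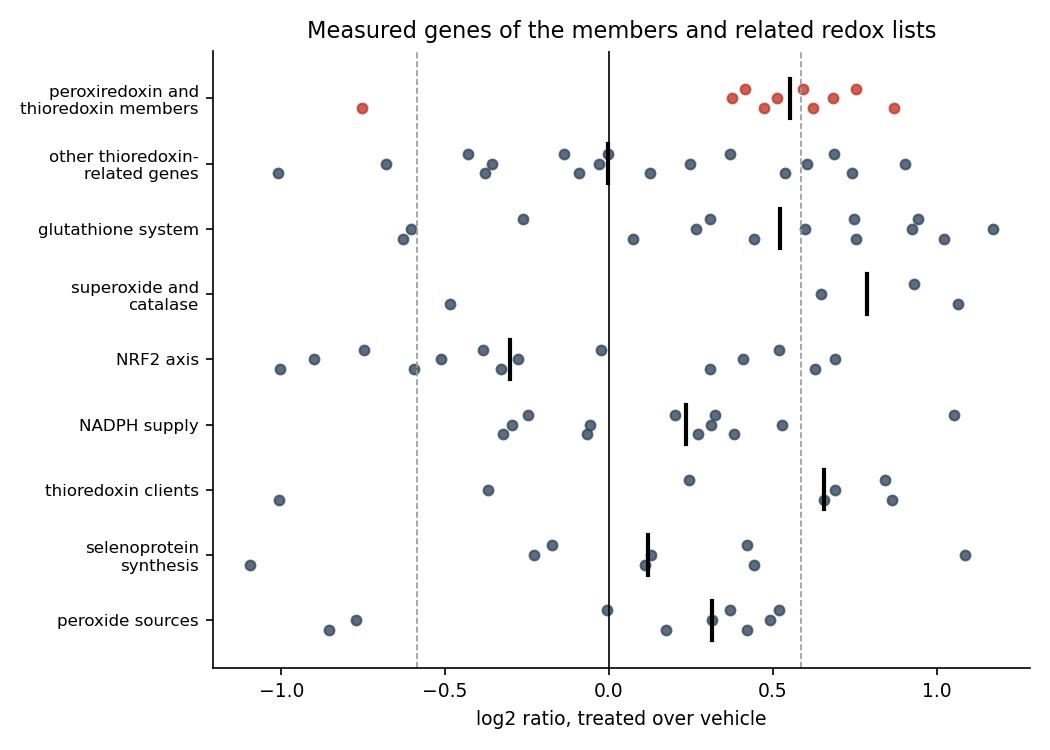
Log2 ratio of treated over vehicle for measured genes (points) of the 10-gene system (red) and of 8 related redox lists, with the median of each list as a black bar and 1.5-fold as dashed lines. The median is 0.55 for the 10 genes, 0.52 for the glutathione system and -0.30 for the NRF2 axis.

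All 10 macrophage markers had counts, with summed levels of 2289 against 2570 CPM. Of these markers 2 were higher and 2 lower, beside 16.2% and 18.8% of all measured genes. Adgre1 was 2.91-fold higher (2.06 to 4.20) and Spi1 1.60-fold higher (1.51 to 1.68), while Mpeg1 was 2.11-fold lower (1.97 to 2.26) and Ptprc 1.55-fold lower (1.49 to 1.62). With the length trend subtracted 1 was higher and 3 lower, beside 9.62% and 11.3% of protein-coding genes. Adgre1 at 1.61 was still higher, and Mpeg1 at -0.80, Cd68 at -0.83 and Lyz2 at -0.61 were lower. Spi1 at 0.46 and Ptprc at -0.26 lay between the thresholds. The part of these markers in the results above was not tested. The fibroblast list had 10 against 6 counts in all, with 5 of 8 markers, among them Col1a1 and Dcn, at 0 in both, the lymphocyte list 4 against 2, the endothelial list 36 against 32 and the epithelial list 0. Of all called genes 46.3% were higher, against 31.5% when libraries were scaled by total counts, where the median log2 ratio of all genes moved by -0.13 and 2 of the 10, Prdx2 and Txn1, were still at least 1.5-fold higher and Txnrd1 lower.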

How the data were processed

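The authors deposited 1 table of raw counts per gene symbol, not normalized, with exon lengths; it was made with featureCounts after STAR 2.5.3a alignment and fastp 0.23.4, as listed in the submitters' processing notes. The notes name the human build GRCh38, while the symbols are mouse. The sources used here do not give the annotation, the strand setting or the treatment of multiply matching reads. Columns were matched to samples by the labels' description.

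Counts were scaled to CPM by TMM (edgeR 4.0.16, R 4.3.3; factors 0.957 treated, 1.05 vehicle), so that 1 CPM was 35.6 and 37.8 counts. With 1 library per group no model has residual degrees of freedom and no test was run. Ratios have exact Clopper-Pearson 95% intervals of the treated share, from counts divided by 2: of counts from 1 to 50, 76.3% and 75.1% were even. A gene was called at 1.5-fold with an interval beyond 1. Ratios of gene quotients within a library have normal-approximation intervals on the log scale. Length came from GENCODE M21 principal transcripts, and the trend was a running median over 50 bins. Of 2 list symbols absent from the table, both were found under newer names. Named list genes were the 4 with the largest log2 ratio in size among those with at least 100 counts, unless said otherwise. The genes, lists and rules were chosen with earlier results of these data known. Alternatives were scaling by total counts, DESeq2 1.42.0 and upper quartile, 1 CPM added, other lengths, filters, thresholds and undivided counts. The interval and trend code was tested on simulated data. Other software was scipy 1.17.1, pandas 2.3.3, numpy 2.4.6 and, for figures, matplotlib 3.10.9, under Python 3.11.15.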

Additional observations from a re-analysis of the deposited data

How the results depend on the processing

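No paired analysis was possible because each group held 1 library, and for the same reason no library could be left out. Against 5 higher and 1 lower of the 10 genes, scaling by total counts gave 2 higher and DESeq2 median of ratios 3, with Txnrd1 lower under both. Calls over all measured genes moved too, from 1987 higher and 2305 lower to 1345 and 2920 with total counts and 1774 and 2509 with DESeq2. The transcript length trend gave 0 higher and 0 lower, the exon length trend 3 higher (Prdx2, Prdx6 and Txn2) and 0 lower, and the trend over shortest principal transcripts, chosen after seeing the data, 1 higher (Prdx6) and 1 lower (Txnrd1). Over all protein-coding genes these trends gave, in that order, 954, 1124 and 952 higher and 1121, 1312 and 1164 lower. A 2-fold threshold gave 0 higher and 0 lower, where 4.17% and 8.64% of measured genes passed. Upper-quartile scaling, undivided counts, no filter and a filter at 10 CPM gave 5 and 1, and 1 CPM added gave 4 and 1. Over all genes these settings called, in that order, 2360, 2097, 2158, 1162 and 1679 higher and 2030, 2429, 2532, 1372 and 2084 lower. Txnrd1 was below 1 and Prdx1, Prdx2, Prdx6, Txn1, Txn2 and Srxn1 above 1 under every scaling and length correction run. For Prdx1 this was marginal, since over the shortest principal transcripts its log2 ratio was 0.01, near no difference. Prdx3, Prdx4 and Prdx5 changed sign under at least 1 length correction. Of 176 counts over the related lists under alternatives, 128 stayed within 1.5 times and 48 did not. Each of the 10 had at least 557 counts in either library, and the spread between cultures is unknown.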
